A study of Homo sapiens with 4 samples.

Results

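HMOX1 and 9 genes of the KEAP1-NRF2 antioxidant circuit were followed in MHCC97H, an established human hepatocellular carcinoma (HCC) cell line. The 10 genes are NFE2L2, KEAP1 and BACH1, which encode the transcription factor NRF2, its cytoplasmic sensor and a competing repressor, and 7 genes known as NRF2 targets (HMOX1, NQO1, GCLM, GCLC, TXNRD1, SRXN1 and OSGIN1). HMOX1 was chosen by its log2 fold change in this same comparison, where it was seen to be far lower in the knockdown libraries, and the circuit around it was added by name. The differences of the 10 genes are therefore given as descriptions, without p-values. All 10 had a row among the 61541 genes of the deposited table, and all 10 passed the filter on low counts with 16863 genes in total.

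The design holds 2 groups of 2 RNA-seq libraries, control cells (shCon) and UBXN1-knockdown cells (shUBXN1), with no other treatment, time point or genotype named. In both groups MHCC97H carries an shRNA, a short hairpin RNA that lowers the mRNA it matches. By the methods of the study the hairpins came from lentiviral vectors, and the hairpin behind the sequenced knockdown cells is not named in the sources used here. No label says that replicates came from separate cultures, so p-values measure the spread between these samples, which may be technical. The comparison asks how the transcripts of the cells differ when UBXN1, a cofactor of the segregase VCP (p97), is reduced.

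NRF2 is made continuously, and in unstressed cells KEAP1 presents it to a CUL3 ubiquitin ligase for degradation. When electrophiles or oxidants modify KEAP1, NRF2 accumulates, pairs with a small MAF protein and binds antioxidant response elements (AREs) near genes for glutathione synthesis, quinone reduction, thioredoxin recycling and heme breakdown. BACH1 pairs with the same small MAF proteins on the same elements and represses them until it binds heme, and HMOX1 is among its best known targets. Many liver tumors carry an active NRF2 pathway, and the liver handles much of the heme turnover of the body.

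AREs are shown first, because these are the letters through which NRF2 and BACH1 are known to read their targets. The core TGACNNNGC was searched on both strands of 300-base promoter sequences from RefSeq (250 bases before to 50 after the start of a gene, GRCh38.p14), where 9 of the 10 genes matched and HMOX1 had no entry. It was found in 2196 of 15339 promoters (14.3%) and in 2 of the 9 genes. The element TGACTCAGC, a subset of that core which also holds the AP-1 letters TGACTCA, was searched in the 10000 bases upstream of the same starts in the hg38 genome and was found at 1990 of 15339 genes (13.0%) and at 3 of the 9. Each match is written 5′ to 3′ on the strand that reads the motif, with the motif in capitals and its distance in bases from the start (negative values lie upstream).
GCLM, centre at -30 from the start, opposite strand, chr1:93909446-93909474, plus strand: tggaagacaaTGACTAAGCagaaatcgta
TXNRD1, centre at -95, strand of the gene, chr12:104215670-104215698, plus strand: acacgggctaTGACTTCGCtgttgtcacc
TXNRD1, centre at -4, opposite strand, chr12:104215761-104215789, minus strand: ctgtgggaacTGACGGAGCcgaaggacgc
NQO1, centre at -451, strand of the gene, chr16:69726997-69727025, minus strand: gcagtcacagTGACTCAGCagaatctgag
GCLC, centre at -3152, opposite strand, chr6:53548239-53548267, plus strand: cgcctccccgTGACTCAGCgctttgtgcg
BACH1, centre at -4884, opposite strand, chr21:29300306-29300334, minus strand: ctggggcgaaTGACTCAGCaacccaactt
By the GENCODE annotation the GCLM window and the TXNRD1 window at -4 reach the first bases of an exon of their own gene, and the other TXNRD1 window lies outside genes. The NQO1 window lies in an exon of the divergent transcript NQO1-DT, and those of GCLC and BACH1 lie in introns of longer transcripts of these genes. A match describes letters in these windows, and no binding was measured. The search windows of SRXN1, OSGIN1, NFE2L2 and KEAP1 held neither motif at the lengths searched.

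The libraries held 23373700 to 27380508 counts each, and mitochondrial transcripts took 5.28% and 5.59% of them in shCon against 7.43% and 8.27% in shUBXN1, a shift whose part in the results was not tested. The targeted gene followed the labels, with UBXN1 at 67.1 and 77.3 CPM (counts scaled to a common, TMM-corrected library size) in shCon and 16.8 and 18.5 CPM in shUBXN1, a log2 fold change of -2.03 (SE 0.0963). Of 14 liver tumor markers GPC3 had no counts in any library and APOA2 no more than 3, whereas KRT8 lay between 2329 and 3467 CPM and HNF4A between 46.9 and 61.8 CPM. Markers of immune cells summed to 71.5 to 89.6 CPM, of endothelial cells to 33.9 to 44.6 CPM, of fibroblasts and stellate cells to 16.9 to 33.8 CPM and of bile duct cells to 247 to 376 CPM. The summed liver markers, a large part of which was KRT8, were lower in shUBXN1 (3518 and 4114 CPM against 4563 and 4727 CPM). Of 12 tested, 8 were called lower (66.7%, where 28.2% of all genes tested were) and KRT18 was called higher. The immune sum was lower (73.9 and 71.5 CPM against 84 and 89.6 CPM), and 2 of 3 tested were called lower (66.7%, against 28.2% of all genes). A same-strand gene covers 81.6% of the exon bases of the immune marker CD68. The fibroblast sum was lower (16.9 and 19.7 CPM against 33.0 and 33.8 CPM) and was nearly all LUM, while COL1A1 of that list was higher, with 58 and 59 counts against 10 and 4. The bile duct sum was lower (247 and 268 CPM against 376 and 374 CPM) through KRT19, while KRT7 was higher (2326 and 2232 counts against 1102 and 1034). The endothelial sum was higher (44.6 and 43.4 CPM against 33.9 and 34.4 CPM) and was nearly all PECAM1. Their part in the results below was not tested.

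In the knockdown libraries the 7 target genes were lower and the genes for NRF2, KEAP1 and BACH1 were higher. HMOX1 stood apart with a level of 12.2% of the control, NQO1, GCLM, OSGIN1, GCLC and SRXN1 lay between 47.0% and 54.8%, and TXNRD1 was at 79.6%. The log2 fold changes of the middle 5 spanned only -1.09 to -0.87. For all 10 genes both shUBXN1 libraries lay outside the range of the shCon libraries. The calls of the same comparison are given as background only. At an adjusted p under 0.05 (edgeR, Benjamini-Hochberg, BH) 7 of the 10 were lower, where 28.2% of all genes tested were, and 3 were higher, where 28.0% were. The 3 became 1 without the second shCon library and 2 with any other library left out. At a fold change of 2 with an unadjusted p under 0.05, 4 of the 10 were lower (HMOX1, NQO1, GCLM and OSGIN1), against a background of 6.09%. Groups that did not overlap were found for 38.6% of all genes with the lower level in shUBXN1 and for 39.4% with the higher level there. The median log2 fold change was -0.88 over the 10 genes, -1.03 over the 7 targets and 0.016 over all genes tested. In bulk RNA, fewer cells with a transcript and less of it per cell cannot be told apart.

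**Figure D1:**
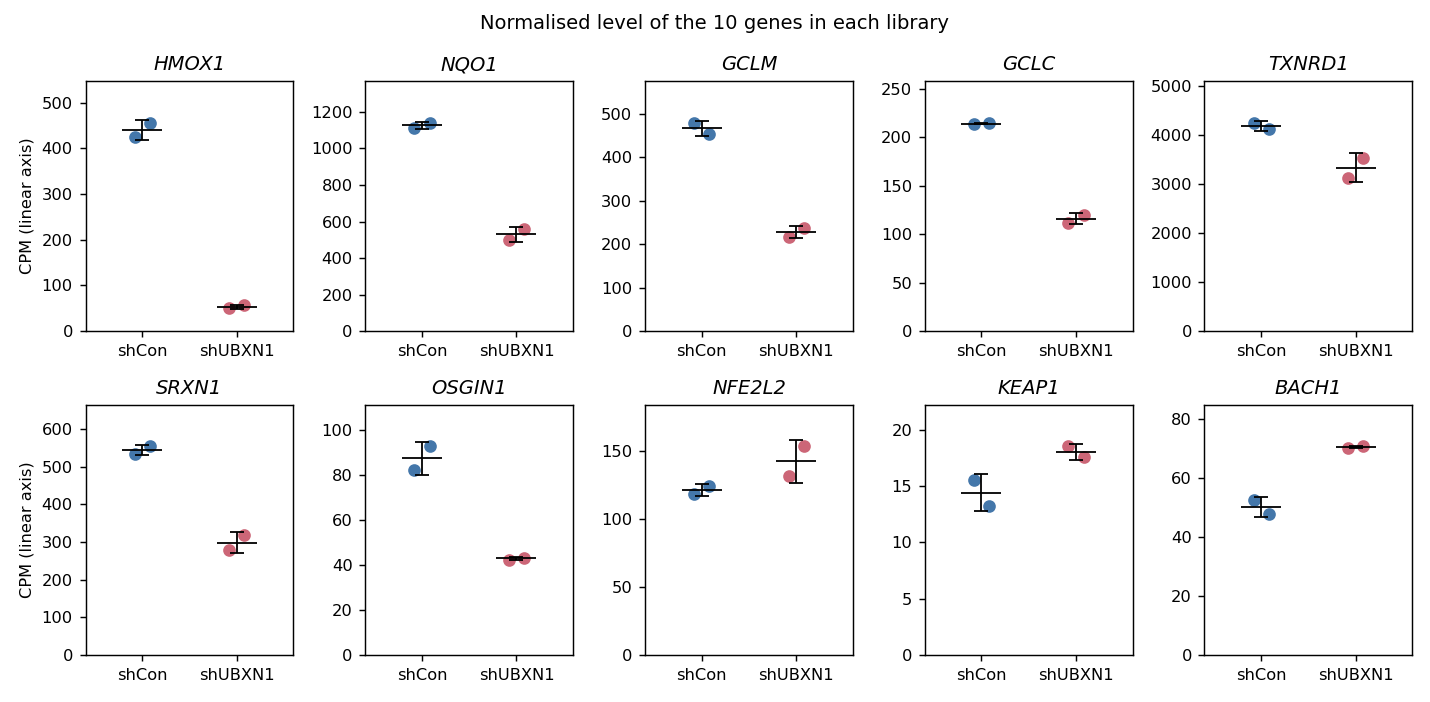
Normalised level (CPM, vertical axis from 0, one panel a gene) of the 10 genes in the 2 shCon and 2 shUBXN1 libraries, with points for libraries, a long line for the group mean and whiskers for the SD. In each panel the 4 points fall into 2 pairs that do not overlap, and relative to the control level the gap is widest for HMOX1, at 424 and 456 CPM against 50.8 and 56.5 CPM.

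HMOX1 (ENSG00000100292, chr22:35380361-35394214 on GRCh38, plus strand) encodes heme oxygenase 1, which opens the heme ring and releases iron, carbon monoxide and biliverdin. Its counts were 11307 and 10721 in control cells and 1256 and 1322 after knockdown. After scaling these were 440 ± 22.8 CPM (SD, n = 2) and 53.6 ± 4.04 CPM (SD, n = 2). Both knockdown libraries were low and close to each other, and the gap between the groups was many times the spread within them. The level was 8.21-fold lower, a log2 fold change of -3.04 (SE 0.0869), and it stayed between -3.13 and -2.95 in 16 other settings of scaling, filter, test or samples. By size of the decrease HMOX1 held rank 63 of 16863 genes, but many genes ahead of it were rarer transcripts. Among the 1413 genes whose mean log2 CPM lay within 1 of its own it ranked 2, and among the 610 genes at or above its mean it also ranked 2. No annotated gene shares exon bases with HMOX1, so overlap does not blur its counts.

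**Figure D2:**
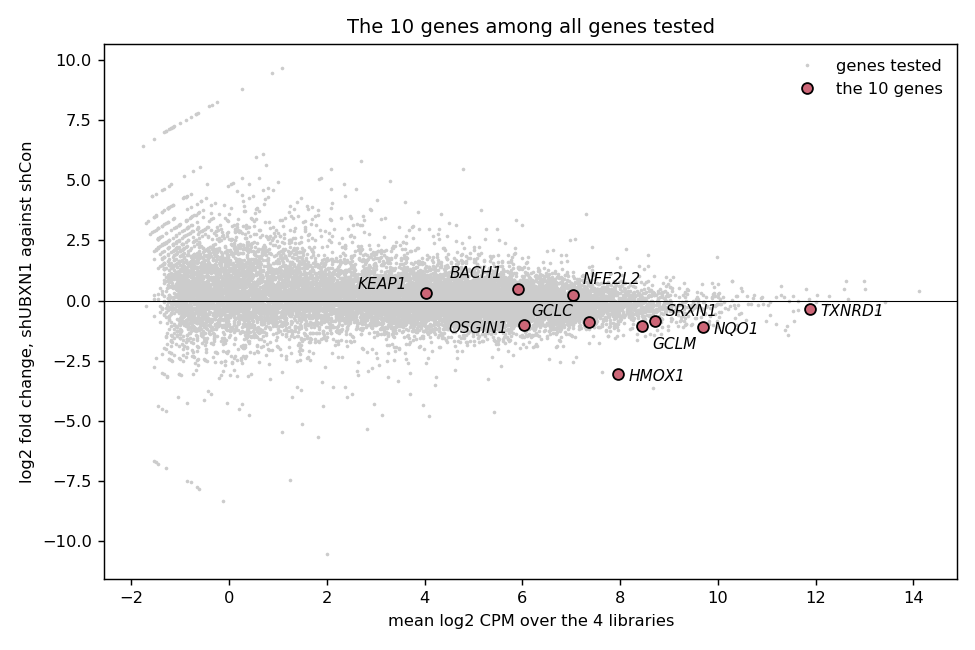
Log2 fold change of shUBXN1 against shCon (vertical axis) over mean log2 CPM (horizontal axis) for the 16863 genes tested, with the 10 genes marked by name. HMOX1 lies at -3.04, far below the middle of the cloud, and the marked genes span mean log2 CPM values from 4.03 to 11.88.

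The genes whose pattern over the 4 libraries lay nearest to that of HMOX1 were named by a distance, the Euclidean distance between log2 CPM values centred on each gene's mean, among genes of similar mean level. VSIG1, which encodes a cell surface immunoglobulin-domain protein, was nearest at a distance of 0.0956 on the log2 scale, with 343 and 357 CPM in shCon and 40.7 and 48.3 CPM in shUBXN1. Next came ITIH2 (distance 0.486), a heavy chain of the plasma inter-alpha-trypsin inhibitors, at a log2 fold change of -2.56, and TMSB10 (0.600), an actin-binding thymosin, at -3.64. The cell cycle transcription factor gene MYBL2 (0.682) had -2.36 and UBE2Q1 (1.26), a ubiquitin-conjugating enzyme gene, had -1.78. With 2 groups of 2 libraries, likeness here mainly records a difference of similar size.

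HMOX2 encodes the second, constitutive heme oxygenase. It lay at 34.6 and 38.9 CPM in shCon and at 29.8 and 28.2 CPM in shUBXN1, a log2 fold change of -0.34 (edgeR, BH-adjusted p = 0.00582), and without the second shCon library the value was -0.27 and no longer passed. Per length, in TPM (counts divided by gene length and scaled to a common sum in every library), HMOX1 was 13.4 and 12.9 times HMOX2 in the shCon libraries and 1.87 and 2.20 times in the shUBXN1 libraries. HMOX1 thus made up 93.1% and 92.8% of heme oxygenase transcripts in control cells and 65.1% and 68.7% in knockdown cells. The inducible gene remained the more abundant of the pair in all 4 libraries.

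NQO1 (ENSG00000181019, chr16:69706996-69726668, minus strand) encodes a quinone reductase that uses NADPH and is a standard marker of NRF2 activity. It had 1112 and 1141 CPM in shCon and 500 and 560 CPM in shUBXN1. Both knockdown libraries lay far below both control libraries, and the group means were 1127 ± 20.5 and 530 ± 42.8 CPM (SD, n = 2). The log2 fold change was -1.09 (SE 0.0857), and 5.28% of all genes tested had a value at or under it. An antisense gene covers 19.35% of the NQO1 exon bases, but it had at most 1 count in any library. The paralog NQO2 did not pass the test, at 57.5 and 61.3 CPM against 57.0 and 58.3 CPM (log2 fold change -0.043, edgeR, BH-adjusted p = 0.654), and its sign turned with other scalings. Per length, NQO1 went from 8.23 and 7.93 times NQO2 to 3.73 and 4.09 times.

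GCLM and GCLC encode the modifier and catalytic subunits of glutamate-cysteine ligase, the rate-limiting enzyme of glutathione synthesis. GCLM (chr1:93885199-93909456, minus strand), whose promoter match is shown above, was at 479 and 454 CPM in shCon and at 217 and 236 CPM in shUBXN1, a log2 fold change of -1.04 (SE 0.0791). GCLC (chr6:53497341-53616970, minus strand) was at 214 and 215 CPM in shCon and at 112 and 120 CPM in shUBXN1, with -0.88 (SE 0.0740). Both subunits were lower by similar amounts, and for both the knockdown libraries lay close together. The ratio of GCLM to GCLC in TPM was 1.05 and 0.991 in shCon and 0.905 and 0.921 in shUBXN1, lower in both knockdown libraries but near 1 throughout. A same-strand gene with 969 to 1352 counts a library (ENSG00000231683) shares 6.14% of the GCLC exon bases, which leaves a small part of the GCLC value uncertain.

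TXNRD1 (chr12:104215779-104350307, plus strand) encodes the cytosolic thioredoxin reductase, a selenoprotein that keeps thioredoxin reduced. It was the most abundant of the 10 genes, with 4256 and 4121 CPM in shCon and 3129 and 3543 CPM in shUBXN1. The groups were apart, but the knockdown libraries differed from each other by more than the control libraries did. The level was 1.26-fold lower, with a log2 fold change of -0.33 (SE 0.0984), and 28.5% of all genes tested were at or under that value. In 4 of 16 other settings TXNRD1 no longer passed the threshold that it passed in the fit reported here, 2 of which left out a shCon library (-0.31 without the first and -0.37 without the second), and the estimates ran from -0.44 to -0.24. It is the gene with 2 core matches in its promoter, and had the smallest difference among the 7 targets. The mitochondrial paralog TXNRD2 was at -0.29 (edgeR, BH-adjusted p = 0.0272) and lost its call in 6 settings, without either shCon library (-0.27 and -0.32) or the first shUBXN1 library (-0.27) among them. TXNRD3 was higher, at 0.44 (edgeR, BH-adjusted p = 0.00979), and lost its call without the first shCon library (0.37) or the second shUBXN1 library (0.32).

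SRXN1 (chr20:646615-653200, minus strand) encodes sulfiredoxin, which rescues overoxidized peroxiredoxins. It lay at 535 and 554 CPM in shCon and at 278 and 318 CPM in shUBXN1, a log2 fold change of -0.87 (SE 0.0837). A same-strand readthrough gene (ENSG00000270299) covers 90.66% of its exon bases and received 4 to 17 counts, so the split of reads between these models is uncertain. OSGIN1 (chr16:83931311-83966332, plus strand) encodes an oxidative stress-induced growth inhibitor. It lay at 82.5 and 92.9 CPM in shCon and at 42.5 and 43.4 CPM in shUBXN1, with -1.03 (SE 0.0817). The same-strand gene MLYCD shares 8.22% of the OSGIN1 exon bases. In both genes the knockdown libraries were well below the control libraries.

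The 3 genes of the control circuit itself were higher in shUBXN1, with log2 fold changes of 0.23 to 0.49. NFE2L2 (chr2:177218667-177392756, minus strand) was at 118 and 124 CPM in shCon and at 131 and 153 CPM in shUBXN1, a log2 fold change of 0.23 (SE 0.0841). The second knockdown library carried most of this difference. Without that library the value was 0.10 and no longer passed the threshold. It also did not pass without the first shCon library (0.20) or the second (0.25), at about the same size. Other genes share exon bases with NFE2L2 on the same strand (13.6%) and on the other strand (24.77%), and since strand use in counting is not given in the sources used here, its value is uncertain.

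KEAP1 (chr19:10486125-10503558, minus strand) was the rarest of the 10, with 15.5 and 13.2 CPM in shCon and 18.5 and 17.6 CPM in shUBXN1. Both knockdown libraries lay above both control libraries, and the log2 fold change was 0.32 (SE 0.119). It did not keep its side of the threshold in 6 of 16 other settings, with 0.19 after correction for GC content, 0.20 without the second shCon library and 0.28 without the first shUBXN1 library. With the test of DESeq2 (0.32) and with limma on log2(TPM + 1) (0.36) KEAP1 did not pass either, though the estimate was no smaller. BACH1 (chr21:29194071-29630751, plus strand) was at 52.5 and 47.6 CPM in shCon and at 70.1 and 70.6 CPM in shUBXN1. The knockdown libraries nearly coincided above both control libraries, and the log2 fold change of 0.49 (SE 0.0786) stayed between 0.40 and 0.57 in the other settings. Per length, NFE2L2 exceeded BACH1 by 5.28 and 6.13 times in shCon and by 4.39 and 5.12 times in shUBXN1, with both knockdown ratios below both control ratios by a small margin.

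**Figure D3:**
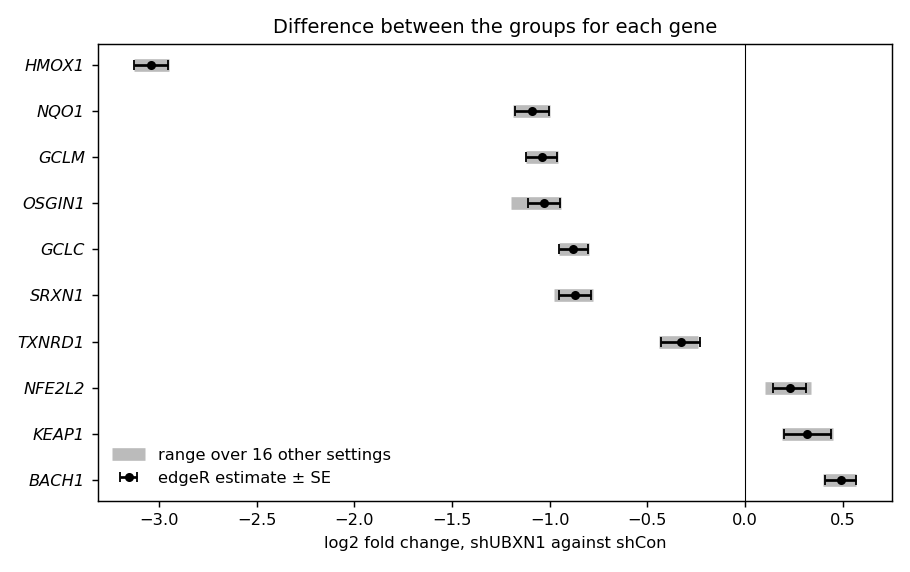
Log2 fold change of shUBXN1 against shCon for each of the 10 genes (horizontal axis), as the edgeR estimate with its standard error and a grey band for the range over 16 other settings. HMOX1 lies at -3.04, 5 targets lie between -1.09 and -0.87, TXNRD1 at -0.33, and the 3 genes of the circuit lie between 0.23 and 0.49.

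In the order of the 10 genes by TPM, NFE2L2 moved from place 7 in shCon to place 4 in shUBXN1, and the largest move was that of HMOX1. In shCon it was the third most abundant, at 555 and 580 TPM behind TXNRD1 (2244 and 2109 TPM) and NQO1 (mean 896 TPM). In shUBXN1 it was the seventh, at 70.8 and 73.1 TPM, below SRXN1, NFE2L2, GCLC and GCLM. Among all genes tested its TPM rank moved from 242 and 238 to 2231 and 2101, whereas that of TXNRD1 moved from 47 and 52 to 57 and 56. GCLM and GCLC did not differ beyond their spread in shCon, where 200 and 184 TPM overlapped 190 and 185 TPM. The 7 targets summed to 4606 and 4480 TPM in shCon and to 2747 and 2869 TPM in shUBXN1. TXNRD1 made up 48.7% and 47.1% of that sum in shCon and 64.0% and 64.4% in shUBXN1, while the share of HMOX1 went from 12.1% and 12.9% to 2.58% and 2.55%.

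The other genes of the pathway were taken from 9 lists. Together 167 of 172 genes were tested, 72 were lower (43.1%) and 34 higher (20.4%) at an adjusted p under 0.05 (edgeR, BH), where 28.2% and 28.0% of all genes tested were, and the median log2 fold change was -0.13. The medians of the single lists ran from -0.46 to 0.14.

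The small MAF genes, whose products partner both NRF2 and BACH1, all rose. MAFG went from 21 and 15.1 CPM to 64.1 and 67.6 CPM (log2 fold change 1.86, edgeR, BH-adjusted p = 1.48e-08). MAFF went from 9.38 and 8.13 CPM to 24.6 and 23.2 CPM (1.45, edgeR, BH-adjusted p = 1.90e-07). MAFK went from 44.3 and 48.1 CPM to 75.0 and 70.9 CPM (0.66, edgeR, BH-adjusted p = 6.80e-06). Per length the 3 summed to 59.0 and 51.7 TPM in shCon and 150 and 139 TPM in shUBXN1, with both knockdown libraries above both controls. In the whole NRF2 control circuit list, 5 of 23 tested genes rose (21.7%, against 28.0% of all genes), 4 fell (17.4%, against 28.2%) and 14 did not pass, with a median of -0.0034. Without the second shUBXN1 library 8 genes of the list were lower. Antisense genes cover 18.1% of the MAFK exon bases.

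SQSTM1, an autophagy receptor that binds KEAP1 and is itself a known NRF2 target, fell from 2546 and 2678 CPM to 1346 and 1524 CPM (-0.86, edgeR, BH-adjusted p = 2.68e-06), with 22.39% of its exon bases under antisense genes. VCP, the segregase that UBX proteins serve and that extracts ubiquitinated NRF2, fell from 693 and 695 CPM to 432 and 489 CPM (-0.59, edgeR, BH-adjusted p = 3.20e-05). UBXN7, another UBX cofactor, rose from 54.7 and 48.4 CPM to 87.6 and 82.0 CPM (0.72, edgeR, BH-adjusted p = 4.47e-06). The relatives of the factors themselves did not pass the test with all libraries. NFE2L1 had a log2 fold change of -0.10, NFE2L3 of 0.18 and BACH2, another heme-binding repressor, of -0.23 (edgeR, BH-adjusted p = 0.293, 0.151 and 0.316). NFE2L1 passed without the second shUBXN1 library, at -0.17. The antisense gene HNRNPA2B1 covers 28.05% of the NFE2L3 exon bases, so the value of NFE2L3 is uncertain.

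Among 26 other NRF2 detoxification targets 16 fell (61.5%, against 28.2% of all genes), 1 rose (3.85%, against 28.0%) and 9 did not pass, with 24 negative values and a median of -0.30. AKR1B10, an aldo-keto reductase abundant in HCC, fell from 3689 and 3776 CPM to 1499 and 1654 CPM (-1.24, edgeR, BH-adjusted p = 7.50e-08). NR0B1, an orphan nuclear receptor gene, fell by 1.23 and ALDH3A1, an aldehyde dehydrogenase, fell by 1.09 on the log2 scale (edgeR, BH-adjusted p = 1.44e-07 and 1.05e-07). The metallothionein gene MT1X was past the threshold on few reads, with 37 and 17 reads counted in control cells and 8 and 9 after knockdown (-1.58, edgeR, BH-adjusted p = 0.0210), and lost its call without the first shCon library (-1.02), without either shUBXN1 library (-1.46 and -1.72) and in DESeq2. The drug efflux gene ABCC1 was the 1 that rose (0.20, edgeR, BH-adjusted p = 0.0383). It was no longer called after the GC correction (0.15), without either shCon library (0.22 and 0.17) or without the second shUBXN1 library (0.11).

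NADPH feeds NQO1, glutathione reductase and thioredoxin reductase, and 9 of 15 tested genes of its supply fell (60.0%, against 28.2% of all genes), 1 rose (6.67%, against 28.0%) and 5 did not pass, with a median of -0.46. RPIA and TKT, enzymes of the pentose phosphate pathway, fell by 1.22 and 0.74 on the log2 scale (edgeR, BH-adjusted p = 1.96e-06 and 3.46e-06). ALDH1L2, a mitochondrial folate enzyme, fell by 1.67 from a low level (edgeR, BH-adjusted p = 7.20e-06). PGD, another pentose phosphate enzyme, did not pass, at 1073 and 1135 CPM against 961 and 1050 CPM, but passed without the second shUBXN1 library (-0.21). NNT, the mitochondrial transhydrogenase, was the gene that rose (0.39, edgeR, BH-adjusted p = 0.000661).

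In glutathione synthesis and use, 14 of 27 genes fell (51.9%, against 28.2% of all genes), 5 rose (18.5%, against 28.0%) and 8 did not pass, with a median of -0.20. Without the second shCon library 9 fell. GPX2, a glutathione peroxidase, fell from 587 and 628 CPM to 211 and 238 CPM (-1.43, edgeR, BH-adjusted p = 6.99e-09), and CHAC1, which degrades glutathione, fell by 1.48 (edgeR, BH-adjusted p = 0.000910). GPX7 and GGT1 rose from low levels, by 2.11 and 1.89 (edgeR, BH-adjusted p = 0.000230 and 4.49e-07). A same-strand gene covers 56.5% of the GGT1 exon bases, so its value is uncertain. GSR, glutathione reductase, fell by 0.52 (edgeR, BH-adjusted p = 0.000288). SLC7A11, the cystine importer and a known NRF2 and ATF4 target, lay at 534 and 499 CPM in shCon and at 531 and 506 CPM in shUBXN1, and the difference did not pass the test (0.0061, SE 0.0787, edgeR, BH-adjusted p = 0.954). Its sign turned without the second shCon library (-0.059) or the first shUBXN1 library (-0.032).

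In the thioredoxin and peroxiredoxin list 5 of 19 genes fell (26.3%) and 6 rose (31.6%), shares near the 28.2% and 28.0% of all genes, 8 did not pass, and the median was 0.14. The number that fell was 2 without the first and 3 without the second shCon library. TXN, the substrate of TXNRD1, fell from 802 and 815 CPM to 505 and 539 CPM (-0.63, edgeR, BH-adjusted p = 1.10e-05), and the TPM ratio of TXNRD1 to TXN went from 1.01 and 0.966 to 1.18 and 1.26. PRDX5, a peroxiredoxin found in mitochondria and peroxisomes, rose from 133 and 144 CPM to 300 and 318 CPM (1.16, edgeR, BH-adjusted p = 2.30e-08). SESN3, a stress-induced sestrin, rose from 15 and 4 counts to 115 and 93 counts (3.50, edgeR, BH-adjusted p = 8.02e-06), and TXNIP, an inhibitor of thioredoxin, fell from 57 and 35 counts to 16 and 8 counts (-1.86, edgeR, BH-adjusted p = 0.00346, lost without the first shCon library at -1.57). Of 4 tested superoxide dismutase and catalase genes 2 fell (50.0%, against 28.2% of all genes) and 2 did not pass, and 1 fell without the second shCon library. With all libraries the genes that did not pass were SOD3 and CCS, and SOD2 had no row under that symbol and was not tested. Catalase (CAT) went from 61.1 and 60.2 CPM to 37.7 and 42.6 CPM (-0.60, edgeR, BH-adjusted p = 2.88e-05), and the extracellular SOD3 had -0.33 (edgeR, BH-adjusted p = 0.222). SOD3 passed without the second shUBXN1 library and after the GC correction, at -0.61 in both.

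**Figure D4:**
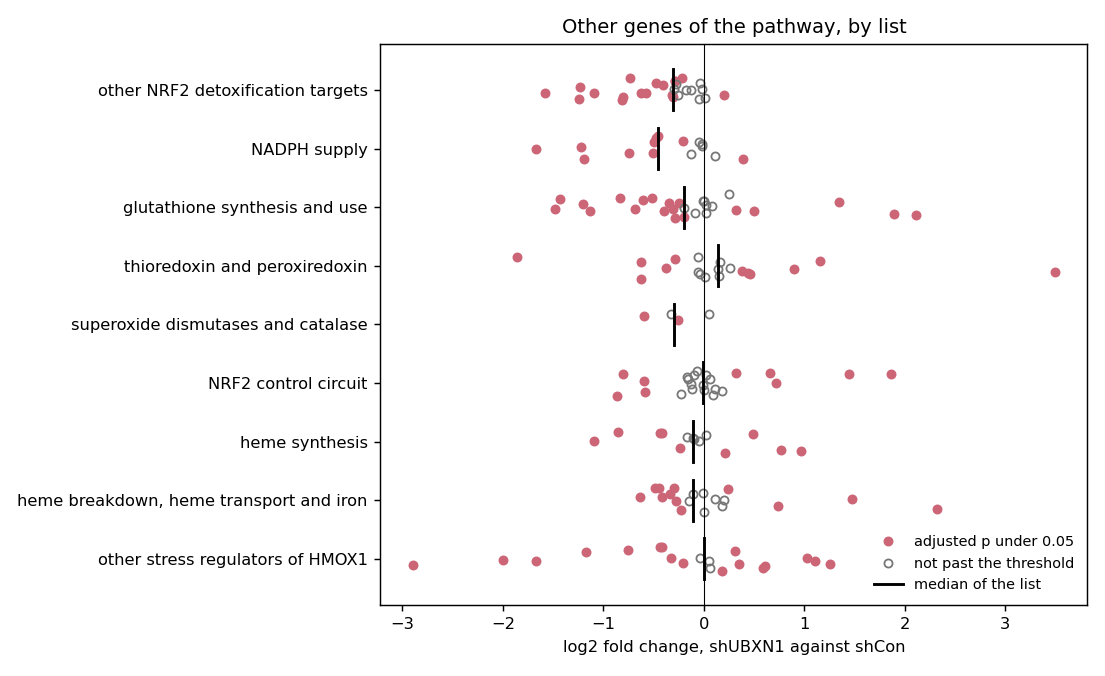
Log2 fold change of shUBXN1 against shCon (horizontal axis) for the tested genes of 9 pathway lists (rows), with filled points for genes at an adjusted p under 0.05 (edgeR, BH), open points for the others and a bar for the median of each list. The medians run from -0.46 for NADPH supply to 0.14 for the thioredoxin and peroxiredoxin list, and 24 of 26 detoxification genes lie below 0.

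On the supply side of heme 5 of 14 synthesis genes fell (35.7%, against 28.2% of all genes), 4 rose (28.6%, against 28.0%) and 5 did not pass, with a median of -0.10. FECH, which inserts iron into the ring at the last step, fell from 67.3 and 64.2 CPM to 30.1 and 31.6 CPM (-1.09, edgeR, BH-adjusted p = 5.50e-08). ALAS1, the first and rate-limiting enzyme in liver, was at 96.1 and 98.8 CPM against 104 and 121 CPM (0.21, edgeR, BH-adjusted p = 0.0394). ALAS1 lost its call without either shCon library (0.19 and 0.22), without the second shUBXN1 library (0.086), after the GC correction and in DESeq2. It had the smallest difference of the 4 that rose. The others were SLC25A37 at 0.97, TMEM14C at 0.77 and ABCB10 at 0.49 (edgeR, BH-adjusted p = 2.97e-07, 9.76e-07 and 0.000637).

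In the list of heme breakdown, heme transport and iron, 8 of 19 tested genes fell (42.1%, against 28.2% of all genes). Of the others 4 rose (21.1%, against 28.0%) and 7 did not pass, and the median of the list was -0.11. Without the second shCon library 4 fell and 2 rose, and with total count scaling 7 rose. BLVRB, a biliverdin reductase and flavin reductase, fell by 0.28 (edgeR, BH-adjusted p = 0.00488) but did not pass without the second shCon library (-0.27). BLVRA, which makes bilirubin, had 0.18 (edgeR, BH-adjusted p = 0.124) and passed without the first shUBXN1 library (0.26). It also passed with total count scaling (0.26) and with limma on log2(TPM + 1) (0.23). The TPM ratio of HMOX1 to BLVRA went from 10.8 and 11.8 in shCon to 1.22 and 1.21 in shUBXN1. FTL, the ferritin light chain that stores iron and is a known NRF2 target, fell by 0.30 (edgeR, BH-adjusted p = 0.0295) and lost its call without either shCon library (-0.35 and -0.26). FTH1, the heavy chain, had 0.20 (edgeR, BH-adjusted p = 0.153) and passed without the first shUBXN1 library (0.34) or with total count scaling (0.28). It also passed with no filter on low counts (0.19) and with limma on log2(TPM + 1) (0.25). Per length the ratio of FTL to FTH1 was 1.59 and 1.6 in shCon and 1.18 and 1.10 in shUBXN1. An antisense gene covers 63.22% of the FTH1 exon bases. The heme and folate carrier SLC46A1 rose by 1.48 (edgeR, BH-adjusted p = 4.30e-06), with 60.61% of its exon bases under antisense genes, and HPX, the plasma heme carrier, had only 2 and 4 counts against 20 and 10 counts (2.32, edgeR, BH-adjusted p = 0.0118) and lost its call without either shCon library (1.83 and 2.95), without the first shUBXN1 library (1.78) and in DESeq2.

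**Figure D5:**
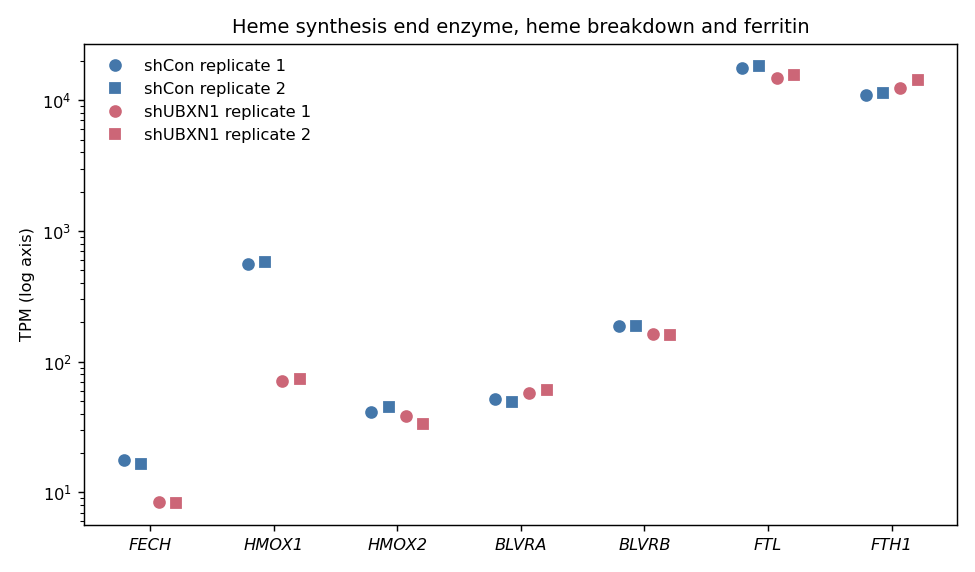
TPM (log axis) of FECH, HMOX1, HMOX2, the biliverdin reductases and the ferritin chains in the 2 shCon and 2 shUBXN1 libraries, with circles for the first and squares for the second replicate. The distance between the groups is largest for HMOX1, from 555 and 580 TPM to 70.8 and 73.1 TPM.

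HMOX1 is also known to respond to stress factors other than NRF2 and BACH1. Of 20 genes of such factors 9 fell (45.0%, against 28.2% of all genes), 8 rose (40.0%, against 28.0%) and 3 did not pass, with a median of 0.0069. The immediate early gene EGR1 fell from 37.3 and 48.7 CPM to 4.97 and 6.54 CPM (-2.90, edgeR, BH-adjusted p = 2.49e-09). KLF2, a flow-responsive factor gene, and FOS, a subunit of AP-1, fell by 2.0 and 1.67 (edgeR, BH-adjusted p = 5.00e-07 and 2.17e-05). STAT3 rose from 103 and 97.9 CPM to 236 and 246 CPM (1.26, edgeR, BH-adjusted p = 6.79e-09). No activity or protein of any of these factors was measured here.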

How the data were processed

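Total mRNA of 4 MHCC97H samples was sequenced by the authors. The table the authors deposited gives expected counts, without normalization, and a length for each gene. Of the nonzero values in a library, 62.4% to 64.6% were whole numbers. The study's methods name Hisat2 and GRCh38, whereas the submitters' processing notes name HISAT2 2.0.4, StringTie 1.3.0 and GRCh37. Of the 61541 gene IDs, 61369 (99.72%) matched GENCODE release 44, from which symbols and GRCh38 positions were taken. The counting tool and strand use are not given in the sources used here.

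Counts were rounded to whole numbers, filtered with filterByExpr, scaled by TMM (factors 0.967 to 1.06) and tested with the quasi-likelihood method of edgeR 4.0.16 under R 4.3.3, with BH adjustment over 16863 genes and 2 residual degrees of freedom. The SE is the size of the log2 fold change over the square root of F. TPM was computed from counts and gene lengths. Library totals ran from 23373700 to 27380508 counts, and replicates differed beyond counting noise (chi-square per degree of freedom 3.65 and 7.77). The script was tested on simulated data.

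The 10 genes, the lists and the naming rule were chosen with earlier results of these data known. Named were the 10 genes, UBXN1, up to 4 genes a list with an adjusted p under 0.05 and at least a 2-fold change (else the 2 with the largest difference), direct paralogs and the 5 genes nearest to HMOX1. SQSTM1, VCP, UBXN7, MAFK, ABCC1, TKT, PGD, NNT, GSR, SLC7A11, TXN, ALAS1, BLVRA, BLVRB, FTL and FTH1 were added after their values were seen, and 1 gene that the rule names is not reported here. SLC25A37, TMEM14C and ABCB10 were added likewise, and their values in the alternatives are not given. Alternatives were other scalings and filters, a replicate block, a GC correction, limma 3.58.1, DESeq2 1.42.0 and leaving out each library. Labels and methods differ in the control's name and the library kit.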

Additional observations from a re-analysis of the deposited data

How the results depend on the processing

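The alternatives gave values for named log2 fold changes and for counts of genes called, and 1197 of these values were unchanged. For a fold change this means the same direction and side of the threshold, and for a count a value within 1.5 times. Of the fold changes, 46 kept direction but no longer passed, 12 newly passed and 4 turned sign, and 17 counts moved by over 1.5 times. The sign turned for NQO2 (0.042 with total count scaling, 0.016 with limma on log2(TPM + 1)) and SLC7A11 (-0.059 to 0.057 with each library left out, negative in 2 of these 4 fits). HMOX1 and UBXN1 kept direction in all 16 alternatives, at -3.13 to -2.95 and at -2.13 to -1.93. HMOX1 was chosen by its difference in these same libraries, so its range is a description only. At a fold change of 2, 1997 genes were higher and 1027 lower in the fit reported. The higher genes numbered 1321 with at least 10 counts in every library, 1031 with limma on log2(TPM + 1) and 1005 with limma on log2(CPM + 1), and the lower genes 524 and 632 in the last 2. Of the 10 genes, 4 were lower at that fold, but 2 with total count scaling and 2 with limma on log2(TPM + 1). They numbered 3 with the GC correction, with or without the replicate block. Among the fits that left out a library, the smallest decreases were -0.98 for GCLM and -0.96 for OSGIN1, short of that fold. Those of NQO1 (-1.01) and HMOX1 (-2.97) stayed past it. With each library left out in turn, 1 to 2 of the 10 were called higher, against 3 with all libraries, and the lowest count came without the second shCon library. Total count scaling moved the median of all genes from 0.016 to 0.10. The cause of these shifts was not tested.

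Replicates shared a number in the labels and nothing else is said to pair them. Their deviations correlated at 0.0393 between groups, over 2 pairs. A replicate block gave 5000 genes higher and 5023 lower at an adjusted p under 0.05, against 4727 and 4751 without it, with HMOX1 at -3.04 and UBXN1 at -2.03. With 2 libraries a group the spread of a single gene rests largely on information shared across genes, and the calls of NFE2L2, KEAP1 and TXNRD1 depended on single libraries.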
